A study of Sus scrofa and Rattus norvegicus with 8 samples.

Results

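Cytosolic ribosomal proteins build the 2 subunits of the ribosome that translates nuclear-encoded messenger RNAs, and an intact ribosome holds a single copy of most of them. The small subunit holds the messenger RNA and checks codon against anticodon, and the large subunit joins amino acids into protein. Their messenger RNAs are abundant in most tissues, and many of them begin with a C followed by a short run of C and T bases, the 5′ terminal oligopyrimidine (TOP) motif, through which growth signals control how actively they are translated.

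The genes described here are the pig gene IDs whose symbol is RPL (large subunit) or RPS (small subunit) followed by a number and at most 1 letter out of A, X and L. They numbered 44 of 25880 gene IDs in the pig table, or of 14844 named nuclear genes, with 20 of the large and 24 of the small subunit. A list of 80 standard cytosolic ribosomal proteins had a value for 47, of which 41 matched the name rule, 18 of the large and 23 of the small subunit. The remaining 3 were paralogs whose names end in L, namely RPL3L, RPL10L and RPS27L. Standard ribosomal proteins without a named ID in the table, such as RPS6, RPS19, RPS27, RPL13A, RPL39 and RPL41, were not analysed here.

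The values came from 6 RNA-seq libraries of the upper layer of backfat (subcutaneous white adipose tissue) of adult female Bama pigs aged 2 years, made from total RNA after depletion of ribosomal RNA. The labels number the libraries as replicates 1 to 6 and do not say more on how they were sampled, so the SD below measures the spread between libraries only. No treatment or second pig group was labelled, so there is no contrast and no test. The 2 rat libraries of the series carry gene IDs that no table here pairs with symbols, and they were not used.

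TPM is a transcript abundance corrected for transcript length and set to a fixed total per library. Levels can be set side by side between genes only as far as the transcript lengths used are right. In the deposited table the named nuclear genes held 24.1 to 26.3% of the TPM in replicates 1, 2, 3 and 6, but 3.34% in replicate 4 and 4.73% in replicate 5. The 13 mitochondrially encoded genes held 10.8 to 21.2% in the former and 0.209% and 0.298% in the latter. Values below are therefore rescaled TPM, in which named nuclear genes sum to 1000000 in each library, unless they are called deposited TPM. Marker genes of adipocytes summed to 25531 to 34447 rescaled TPM in replicates 4 and 5 and to 17115 to 32087 in the other libraries, with 6 of 6 markers found and none at 0 throughout. FABP4 made up most of these sums, with 20000 and 28926 in replicates 4 and 5 and 10370 to 24010 in the others. The median adipocyte marker was at 1121 and 1051 in replicates 4 and 5 and at 1313 to 1746 in the others. By gene, 1 of 6 lay above the other libraries in both and 2 lay below. Marker sums of 4 of 5 other cell types were lower in replicates 4 and 5 than in every other library. Those of macrophages (4 of 4 with a value) summed to 194 to 293 against 356 to 463, those of endothelium (3 of 4) to 556 to 674 against 988 to 1214, and those of lymphoid cells (5 of 5) to 9.75 to 10.2 against 16.7 to 29.1. Skeletal muscle markers (3 of 5) summed to 0.887 to 0.945 against 2.19 to 10.98, and keratinocyte markers (2 of 4), which overlapped, to 0.614 to 1.33 against 0.751 to 1.67. Lower values in these 2 libraries were common, since 48.6% of 8866 named nuclear genes with a mean of at least 10 rescaled TPM lay below in both. By gene, 2 of 4 macrophage and 3 of 3 endothelial markers did so. The lymphoid and skeletal muscle sums rest on genes of low level, with highest means of 7.16 and 1.84 rescaled TPM. In bulk tissue, fewer cells of a type and less RNA per cell cannot be told apart.

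The start of the transcript is shown first for a selection of the genes described below. It holds a larger share of genes with a TOP-like start (defined below the windows) than the whole set does. Each window holds 15 bases before the annotated RefSeq start and 15 from it onwards, on the Sscrofa11.1 build and written 5′ to 3′ on the strand of the gene. Capitals mark the unbroken run of C and T that covers the first base of the transcript, and a window without capitals has no such run.
RPL38 (chr12:6889880-6889909, minus strand): cggaagcggaagTCCCTTCCTTTTCCgttc
RPL7 (chr4:62602415-62602444, plus strand): cgcatgcgctaaCTTCCTCTTTCCCggctg
RPL10 (chrX:124927234-124927263, plus strand): caggcgtgggagcgCCTCTTTTCCTTCggc
RPL29 (chr13:34121811-34121840, minus strand): gcggCCTTCCTTTCTCTTCCggccccaggc
RPS20 (chr4:75762194-75762223, plus strand): aggcctcacgCCTTCCTCTTTgaagaagac
RPS25 (chr9:46242160-46242189, minus strand): tgctccccgggaCTTCCTCCgcgtggctcc
RPS28 (chr2:70954758-70954787, minus strand): ggcacgtgaCTCCTCTCCgccagaccaccg
RPS24 (chr14:80473861-80473890, plus strand): gccacgcccccacgTCggaaccgcccgggg
RPS21 (chr17:61763591-61763620, plus strand): cggcccttcctttctgcgctcgcgctcatc
RPS27L (chr1:108881315-108881344, plus strand): ggctccctacccgccatacaccagttgagc
RPL10L (chr1:176604102-176604131, minus strand): cgatcagcggcccacaggagaataaacccc

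The first 6 windows have a TOP-like start, defined as a C at the annotated start and 4 further bases that are each C or T. The same form was found at 9 of the 44 genes (20.5%), the others being RPL6, RPL23 and RPS3A, against 406 of 13510 named nuclear genes (3.01%). Among genes whose RefSeq transcript was curated it was found at 7 of 26 ribosomal protein genes (26.9%) and at 92 of 3309 of all genes (2.78%). RPS28 has a C and T run that covers its annotated start, but its annotated first base is a T and the run ends soon after. RPS21 has such a run that ends before its annotated start. The paralogs RPS27L and RPL10L lack the form in these windows, which says only that the letters are not at the annotated first base. The 9 genes with the form were not set apart by level, with means from 143 (RPS25) to 5025 (RPL38) rescaled TPM.

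Ribosomal protein transcripts are short, with a median RefSeq length of 729 bases against 3126.5 bases over all named nuclear genes, while their median GC content was 50.9% against 51.9%. Many have near-identical copies elsewhere in the genome. In Sscrofa11.1, 31 of the 44 coding sequences had at least 1 further match of at least 90% identity over at least 80% of their length, 69 matches in all, with 7 each for RPS23, RPS24 and RPS25. Reads of such genes can be divided between copies by the quantification, so their levels are uncertain. RPS28, RPS15, RPS3, RPS29, RPL3 and RPL5 were among the 13 genes without such a match. Each match was a single alignment of the spliced coding sequence, so copies interrupted by introns could be missed.

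Ribosomal protein genes were highly transcribed in every library. The median gene had 875, 902, 948, 1146, 1281 and 892 rescaled TPM in replicates 1 to 6, and the median of the gene means was 1047 (quartiles 648 and 2014) against 16.7 over all named nuclear genes. Of the 44 genes, 23 were among the 100 most abundant named nuclear genes, 8 of the large and 15 of the small subunit, and 38 were among the top 500. Together they held 7.62, 6.82, 7.81, 9.97, 11.09 and 7.47% of named nuclear TPM in replicates 1 to 6, a mean of 8.46% ± 1.67 (SD, n = 6). The highest shares were those of replicates 4 and 5. Of all deposited TPM the genes held 1.40% ± 0.768 (SD, n = 6), where replicates 4 and 5 were the lowest.

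**Figure D1:**
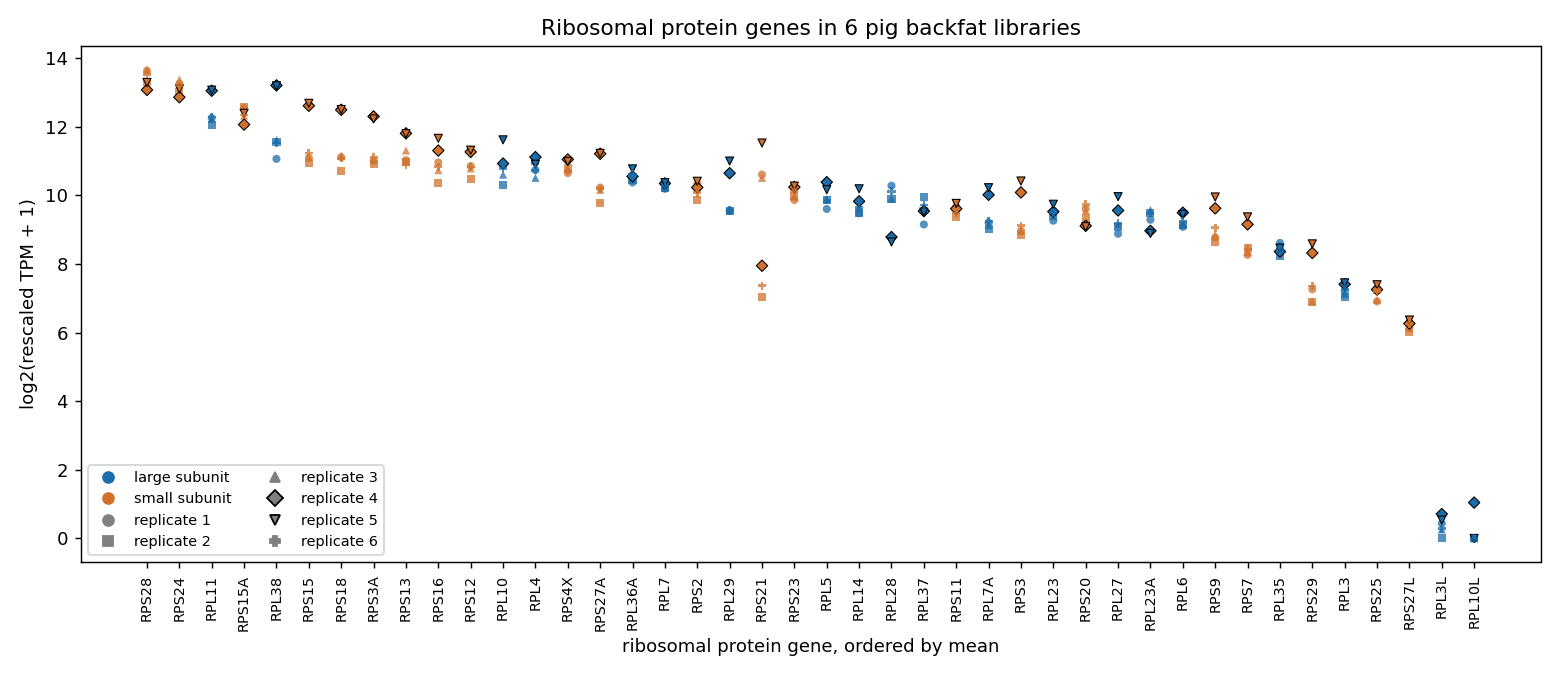
Level of the ribosomal protein genes, other than 2 genes that are not shown, in the 6 pig backfat libraries, as log2(rescaled TPM + 1), with genes ordered by their mean, colour giving the subunit and marker shape the replicate (replicates 4 and 5 outlined in black). RPS28 and RPS24 stand at the top with means of 11106 and 9062 rescaled TPM, RPL3L and RPL10L lie near 0, and the libraries of RPS21 spread over 22.8-fold.

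Genes of the small subunit were higher than those of the large subunit at the median. The median of the gene means was 1357 rescaled TPM for the 24 small-subunit genes and 818 for the 20 large-subunit genes, or 853 without RPL10L and RPL3L. By library the small-subunit median was 1434, 976, 1338, 1666, 2218 and 1138 in replicates 1 to 6, and that of the large subunit 670, 737, 784, 833, 1075 and 783. The small subunit was the higher in 6 of 6 libraries. The large-minus-small difference in the median of log2(rescaled TPM + 1) was -0.80 ± 0.28 (SD, n = 6), from -1.09 in replicate 1 to -0.40 in replicate 2. It was -0.67 ± 0.28 without RPL10L and RPL3L. Genes are not replicates, so no p is given, and the members of each subunit that have a value are not the full sets. Of the standard proteins that match the name rule, 18 of 43 of the large and 23 of 30 of the small subunit had a value. With 5 proteins that the name rule misses added, the difference was -0.49.

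By sum the small-subunit genes held 5.85% ± 0.984 (SD, n = 6) of named nuclear TPM and the large-subunit genes 2.61% ± 0.723. The ratio of the sums was 2.30 ± 0.304 (SD, n = 6), between 1.91 and 2.70. A few genes carried much of this gap. RPS28 and RPS24 together held 23.8% of the summed means of the 44 genes, and without both of them the ratio was 1.47 ± 0.0910 (SD, n = 6), between 1.366 and 1.604. The 5 highest genes of each library held 45.9% ± 3.94 (SD, n = 6) of the ribosomal protein total.

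**Figure D2:**
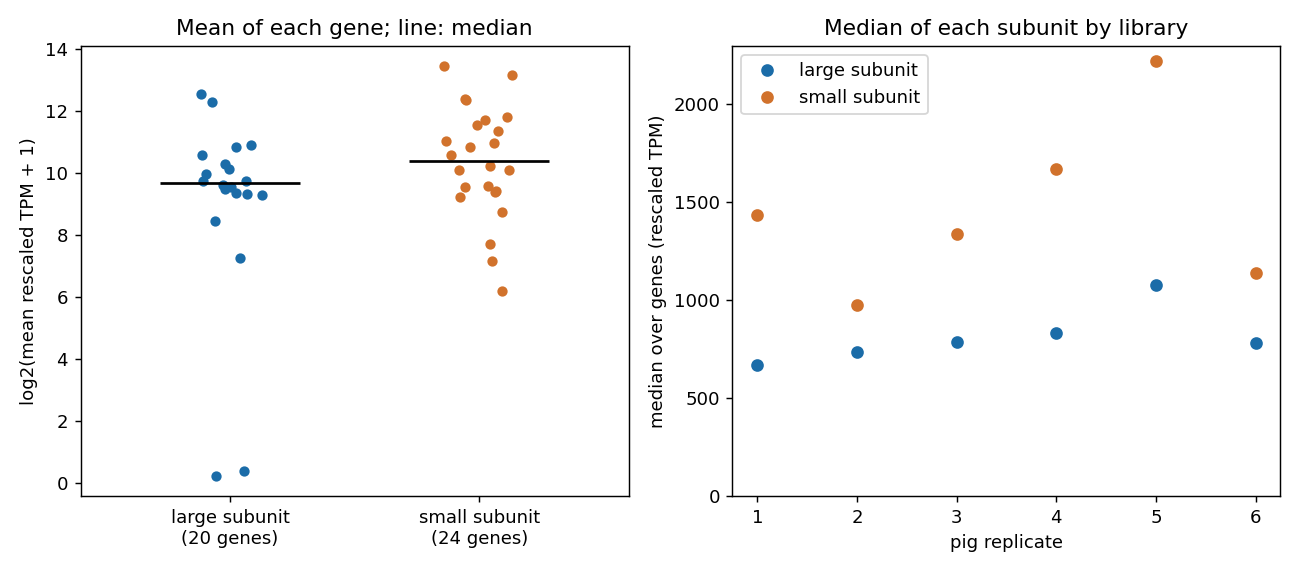
Left, log2(mean rescaled TPM + 1) of each large-subunit (20) and small-subunit (24) gene, with a line at the median; right, the median over genes of each subunit in rescaled TPM, by library. The small-subunit median lies above that of the large subunit in all 6 libraries, from 976 against 737 in replicate 2 to 2218 against 1075 in replicate 5.

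Although their products are used in near equal numbers, the genes differed widely in level. The SD of log2(rescaled TPM + 1) over the genes was 2.61 ± 0.0529 (SD, n = 6) per library, and 1.62 ± 0.0576 without RPL10L and RPL3L. The upper quartile was 3.76 ± 0.722 (SD, n = 6) times the lower. Without those 2 paralogs, the highest mean was 153 times the lowest.

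Outliers were sought as genes whose log2(mean rescaled TPM + 1) lay more than 3 scaled median absolute deviations (MADs) from the median gene, at 10.03, with a scaled MAD of 1.21. The 3 outliers were all paralogs and all lay below, and the call for 1 of them was marginal. RPL10L, a retrogene copy of RPL10 known from the male germ line, lay at -8.12 scaled MADs from the median and RPL3L, the striated-muscle form of RPL3, at -7.99. RPS27L, a paralog of RPS27, lay at -3.17. RPS27L was no longer an outlier in deposited TPM (-2.67), after quantile normalization (-2.84), or without replicate 1 (-2.93), 3 (-2.87), 4 (-2.95) or 5 (-2.79), whereas RPL10L and RPL3L were outliers in each of these. RPL10L was at 0 in 5 libraries and at 1.06 rescaled TPM (0.0356 deposited TPM) in replicate 4. RPL3L had 0.353, 0, 0.201, 0.638, 0.448 and 0.217 rescaled TPM in replicates 1 to 6, all under 1. Their partners were well detected, with RPL10 at 1933 ± 648 and RPL3 at 152 ± 17.1 rescaled TPM (SD, n = 6). RPS27L was low but steady, at 70.5, 64.0, 69.0, 76.0, 81.6 and 75.5 rescaled TPM, a mean of 72.8 ± 6.21 (SD, n = 6) and rank 2686 among named nuclear genes.

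RPS28, a short protein of the small subunit, was the most abundant ribosomal protein gene and ranked 4 among named nuclear genes, but at 2.82 scaled MADs above the median gene it was not an outlier by this rule. It had 12748, 10226, 13098, 8655, 10066 and 11844 rescaled TPM in replicates 1 to 6, a mean of 11106 ± 1736 (SD, n = 6) and 10.6 times the median gene. Replicates 4 and 5 were the lowest of the 6, although replicate 2 was close to replicate 5. With libraries centred on the median gene they were not the lowest, at 11382 and 13742 against 8815 to 12874. RPS28 (chr2:70953709-70954772, minus strand, 4 exons) has an annotated transcript of 320 bases, shorter than that of any other of the 44 genes, and no near-identical match in the genome.

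RPS24, a small-subunit protein whose gene is mutated in Diamond-Blackfan anaemia, came next with 9754, 8252, 10672, 7464, 8823 and 9409 rescaled TPM, a mean of 9062 ± 1137 (SD, n = 6) and rank 6. The values of RPS24 and RPS28 overlapped between genes over libraries, although RPS28 was higher within each library. RPS24 lay 2.58 scaled MADs above the median gene and has 7 near-identical matches. RPL11, a large-subunit protein that with RPL5 joins the ribosome together with its smallest RNA, was the highest of its subunit with 6018 ± 1983 (SD, n = 6), 2.09 scaled MADs above. RPL5 stood at 1010 ± 200 (SD, n = 6), near the median gene. These 3, RPS28, RPS24 and RPL11, were the only genes more than 2 scaled MADs above the median. Other abundant genes were RPS15A at 5355 ± 658 and RPL38 at 5025 ± 3437 rescaled TPM (SD, n = 6).

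At the low end among genes that are not paralogs, RPS25 and RPL3 lay at -2.37 and -2.30 scaled MADs from the median gene. RPS25, a small-subunit protein used by some viral internal entry sites, had 119, 152, 123, 152, 168 and 144 rescaled TPM, a mean of 143 ± 18.5 (SD, n = 6). RPL3, a core protein close to the catalytic centre of the large subunit, had 146, 130, 139, 169, 174 and 152. Both were steady between libraries and ranked 1256 and 1168 among named nuclear genes. RPS25 has 7 near-identical matches in the genome and RPL3 has none. RPS29, a small zinc-binding protein of the small subunit, had 210 ± 113 (SD, n = 6), and RPL35, of the large subunit, 349 ± 33.0. RefSeq gives RPS25 and RPS29 predicted transcripts of 1407 and 1695 bases, the longer of 2 for each gene. Their coding sequences have 378 and 261 bases. TPM divides by the transcript lengths used in quantification, so a model that is too long lowers the value. Those lengths are not known here and need not be the RefSeq ones. The part of length in these low levels was not tested.

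The spread between libraries was given by the coefficient of variation (CV, SD divided by mean) over genes whose mean reached 10 rescaled TPM. Its median was 0.200 over 42 ribosomal protein genes (quartiles 0.120 and 0.390) and 0.282 over 8866 named nuclear genes. That order depends on the scale, since with libraries centred on the median gene the medians were 0.387 and 0.276, and the ribosomal protein genes had the larger spread. With a minimum of 100 rescaled TPM, at which genes are closer in level, the medians were 0.202 over 41 genes and 0.260 over 1947. In deposited TPM the medians over the 42 and 8866 genes were 0.574 and 0.680, so rescaling lowered both. The median in rescaled TPM was 0.195 for the large and 0.259 for the small subunit. In rescaled TPM, 16 of 42 genes (38.1%) had a CV under 0.15, against 15.7% of all genes, and 7 (16.7%) had a CV over 0.5, a share near the 14.9% of all genes.

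**Figure D3:**
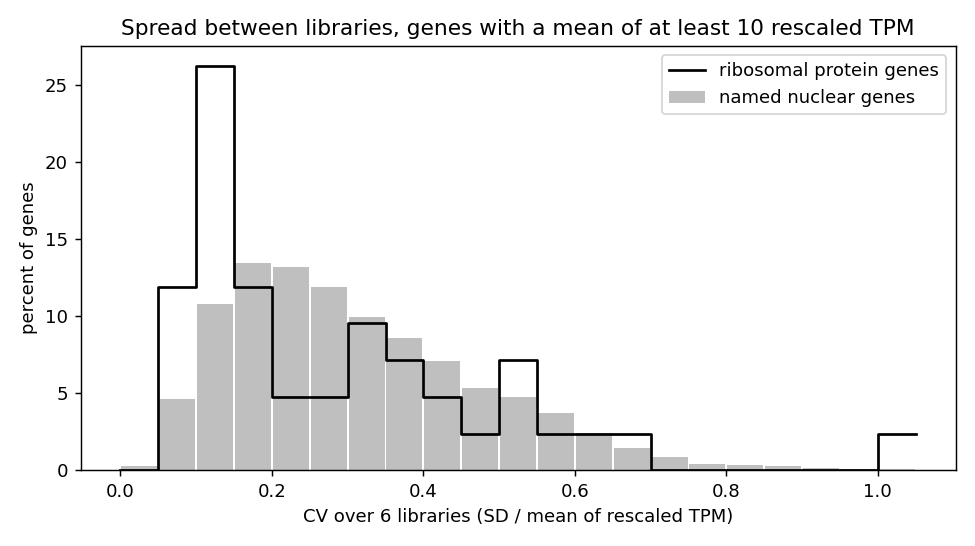
Distribution of the CV over the 6 pig libraries (SD divided by mean of rescaled TPM) for ribosomal protein genes (line) and all named nuclear genes (grey bars) with a mean of at least 10 rescaled TPM, as a percent of the genes of each set; 0.496% of all genes lie past the right edge. The ribosomal protein genes peak between 0.1 and 0.15 with 26.2% of genes, against 10.8% of all genes, and have a tail that ends with RPS21 at 1.04.

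RPL7, a large-subunit protein, was the steadiest with 1171, 1199, 1203, 1306, 1325 and 1233 rescaled TPM in replicates 1 to 6, a mean of 1239 ± 62.3 (SD, n = 6) and a CV of 0.0502. The next smallest CVs were those of RPS27L (0.0853) and RPL35 (0.0945). RPS4X, the X-linked form of a small-subunit protein, was also even at 1831 ± 204 (SD, n = 6).

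RPS21, a small protein of the small subunit, varied the most, with a CV of 1.04. It had 1563, 129, 1461, 247, 2957 and 165 rescaled TPM in replicates 1 to 6, a mean of 1087 ± 1126 (SD, n = 6) and a range of 22.8-fold. Replicates 1, 3 and 5 were high and replicates 2, 4 and 6 were low, with no value in between. Replicates 4 and 5 stood on opposite sides of this split. RPS21 has 1 near-identical match in the genome and an annotated transcript of 348 bases. Over replicates 1, 2, 3 and 6 alone, its CV was 0.951, the largest of the 42 genes. The median over these libraries was 0.0909 for ribosomal protein genes and 0.163 for 9091 named nuclear genes.

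The 2 genes after RPS21 varied through replicates 4 and 5. RPL38, a large-subunit protein whose loss in mouse alters the translation of Hox messenger RNAs, had 9480 and 9397 rescaled TPM in replicates 4 and 5 and 2146, 3016, 3149 and 2965 in replicates 1, 2, 3 and 6 (CV 0.684). RPS15, a small-subunit protein needed late in the assembly of that subunit, had 6280 and 6596 against 2202, 1974, 2207 and 2410 (CV 0.608). Neither gene overlapped between these libraries.

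**Figure D4:**
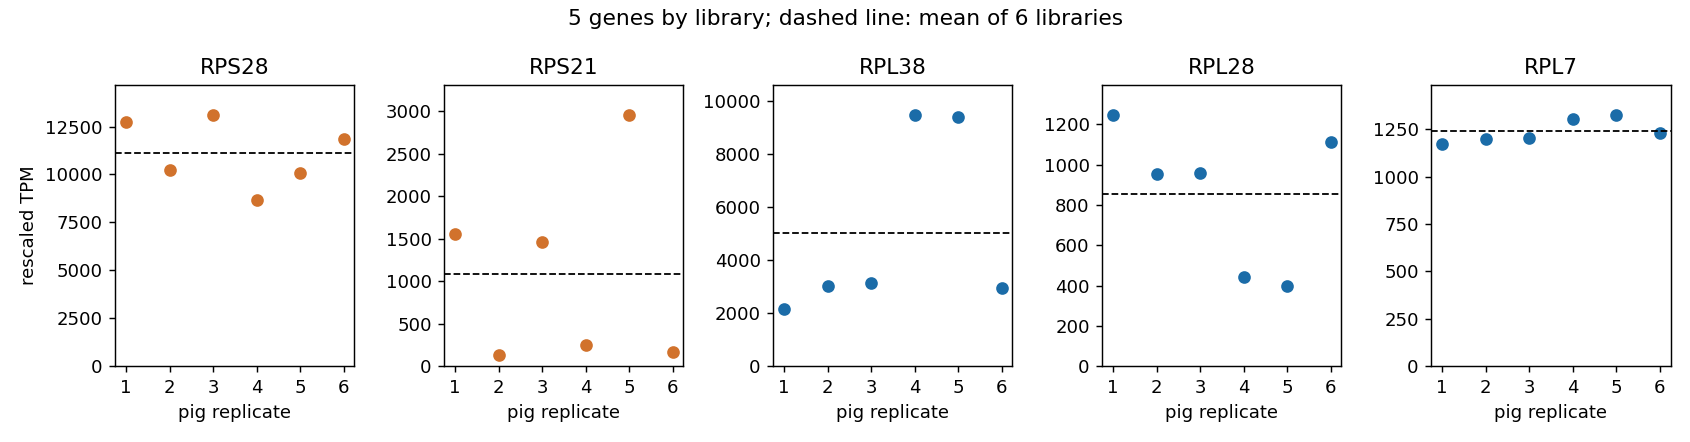
Rescaled TPM of RPS28, RPS21, RPL38, RPL28 and RPL7 in each pig library, each panel on its own axis from 0, with a dashed line at the mean of the 6 libraries. RPL38 is high and RPL28 low in replicates 4 and 5, RPS21 is high in replicates 1, 3 and 5, and RPL7 stays between 1171 and 1325.

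Many ribosomal protein genes shared this pattern. Replicates 4 and 5 both lay above the other 4 libraries for 27 of 42 genes (64.3%; 12 of 18 large and 15 of 24 small), where 12.3% of 8866 named nuclear genes did so. Both lay below for 5 of 42 (11.9%), where 48.6% of all genes did so. Rescaling over named nuclear genes outside the 44 gave 28 above and 3 below, with 13.8% and 46.2% of all genes. The direction depends on the scale. In deposited TPM 0 genes lay above and 41 below, with 0.079% and 99.1% of all genes; with libraries centred on the median gene 36 lay above and 1 below, with 35.8% and 23.7% of all genes; and after quantile normalization 22 lay above and 6 below, with 29.3% and 27% of all genes. These 2 libraries also had the low nuclear and mitochondrial shares and the low macrophage, endothelial and lymphoid marker sums given above, whose part in the pattern was not tested.

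Other genes that were higher in both libraries included RPS18 (5786 and 5821 against 1684 to 2288 rescaled TPM), RPS3A (5062 and 4812 against 1918 to 2210) and RPL11 (8508 and 8610 against 4295 to 4999.5). RPS27A, which is made as a fusion with ubiquitin, had 2379 and 2399 against 875 to 1202. RPS3, which lines the channel where messenger RNA enters, had 1088 and 1371 against 459 to 557. RPS29 had 319 and 384 against 118 to 164. RPL29 was alike in the other libraries, at 753 to 763, and had 1606 and 2053 in replicates 4 and 5.

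The genes that were lower in both libraries included RPS28, RPL28, RPS20 and RPL23A. RPL28, of the large subunit, moved most, with 441 and 399 rescaled TPM in replicates 4 and 5 against 1246, 955, 959 and 1115 in the others. RPL23A, which lies at the exit of the nascent chain tunnel, had 500 and 474 against 626 to 763. RPS20 had 554 and 544 against 644 to 857.

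**Figure D5:**
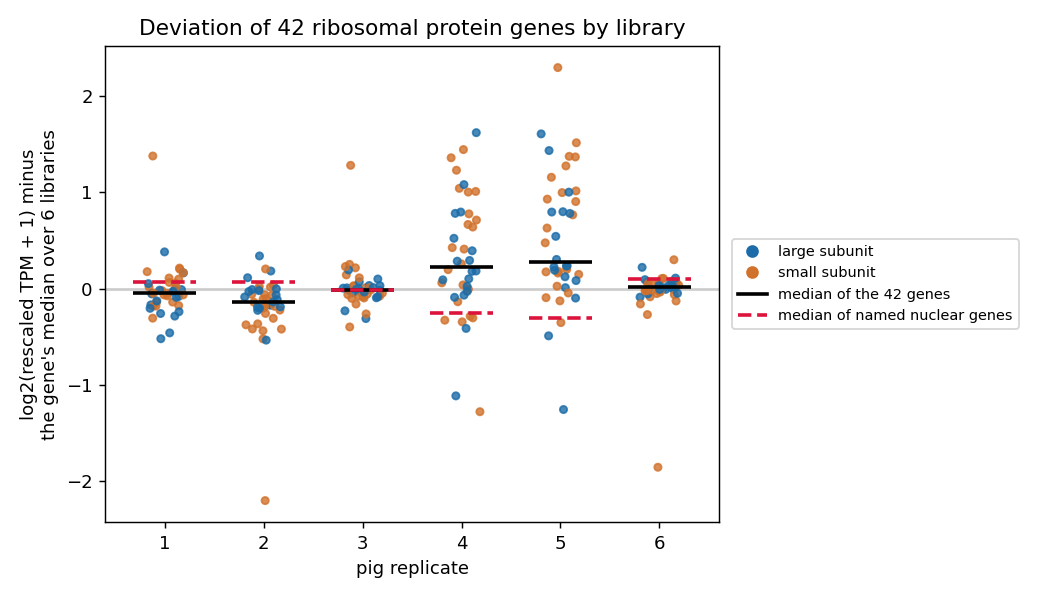
Deviation of each of the 42 ribosomal protein genes with a mean of 10 rescaled TPM or more in each pig library from its own median over the 6 libraries, as a difference of log2(rescaled TPM + 1); black lines are medians of the 42 genes and dashed red lines those of the 8866 named nuclear genes of that level. In replicates 4 and 5 the median of the ribosomal protein deviations differs in sign from that of all genes.

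The median of the ribosomal protein deviations from each gene's own median, on the log2(rescaled TPM + 1) scale, was 0.23 in replicate 4 and 0.27 in replicate 5, computed over 42 genes. Over the 8866 named nuclear genes it was -0.26 and -0.31. In the other libraries the medians were between -0.14 and 0.01 for ribosomal protein genes and between -0.02 and 0.10 for all genes. Replicate 5 was the highest library for 26 of the 44 genes, and replicate 2 the lowest for 21. The same counts over all named nuclear genes are not given here, so nothing particular to these genes can be read from them.

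Without replicates 4 and 5, the ribosomal protein genes were close between libraries. Over replicates 1, 2, 3 and 6, the median CV was 0.0909, against 0.163 over 9091 named nuclear genes. RPL29 had the smallest, at 0.00628. The order of genes was also alike, with Pearson's r of log2(rescaled TPM + 1) across 42 genes (without RPL10L and RPL3L) of 0.926 to 0.993 among these 4 libraries, 0.945 between replicates 4 and 5, and 0.842 to 0.934 across the 2 sets. These values also followed the split of RPS21 given above. Across the 2 sets, pairs of libraries on the same side of it had 0.911 to 0.934 and pairs on opposite sides 0.842 to 0.892. Among replicates 1, 2, 3 and 6, the same-side pairs had 0.992 and 0.993 and the others 0.926 to 0.948. The part of RPS21 in these values was not tested. All of them describe genes, which are not replicates.

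Sequence features followed level only weakly across the 42 genes with a mean of at least 10 rescaled TPM. Spearman's rho with the mean was -0.31 for RefSeq transcript length, 0.17 for the number of near-identical matches and -0.04 for GC content, as descriptions. The 27 genes that were higher in replicates 4 and 5 had a median transcript length of 709 bases and GC content of 50.0%. The 5 that were lower had 629 bases and 56.2%, and the 10 that overlapped 712.5 bases and 52.0%. Across the 42 genes, Spearman's rho of GC content with the deviation from each gene's own median was -0.15 in replicate 4 and -0.01 in replicate 5. That of transcript length was 0.05 and -0.13.

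Ribosomal proteins that the name rule misses had levels in the same range. RPLP0, a protein of the stalk that recruits elongation factors, had 1298, 1110, 1161, 2086, 2412 and 1358 rescaled TPM in replicates 1 to 6, highest in replicates 4 and 5. Its stalk partners RPLP1 and RPLP2 had means of 933 and 640, the small-subunit protein RPSA 503, and RACK1, a scaffold on the small subunit, 802. FAU, which encodes a small-subunit protein fused to a ubiquitin-like domain, was the exception with 21.9, 22.3, 18.5, 5.26, 3.50 and 18.1 rescaled TPM, low in all libraries and lowest in replicates 4 and 5. The paralogs RPL36AL, RPL26L1 and RPL7L1 had means of 147, 95.9 and 33.8.

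Other genes of protein synthesis were set beside them from fixed lists. The 64 mitochondrial ribosomal protein genes, whose ribosome translates the mitochondrial messenger RNAs, had a median of 34.7 rescaled TPM, and their 58 genes with a mean of at least 10 had a median CV of 0.208. In that list replicates 4 and 5 both lay above the others for 22 of 58 genes and both below for 16 (37.9% and 27.6%, against 12.3% and 48.6% of all named nuclear genes). The 31 initiation factor genes with a value had a median of 174, with 10 above and 12 below (32.3% and 38.7%). The 36 ribosome biogenesis genes had a median of 29.0, with 8 above and 15 below (22.2% and 41.7%), the latter near the 48.6% of all genes. The 6 genes with a value in a list of elongation factors and related genes had a median of 246. Among these, EEF2, the translocation factor, had a mean of 2033 ± 201 (SD, n = 6), TPT1, whose messenger RNA also carries a TOP motif, 10448 ± 2300, and EEF1A2, the muscle and neuron form of its factor, 1.19.

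Regulators of ribosome production had a median of 103 rescaled TPM. LARP1, which binds TOP messenger RNAs, had a mean of 208 rescaled TPM, the growth kinase MTOR 25.01 and RPS6KB1, a kinase of RPS6, 86.8. MYC, a transcription factor that drives ribosome production, had a mean of 119. In this list of 8 genes, of which 7 had a mean of at least 10, replicates 4 and 5 both lay above the others for 1 gene and both below for 6, where 12.3% and 48.6% of all named nuclear genes did so; with 7 genes nothing particular to the list can be read from this.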

How the data were processed

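The authors made stranded libraries from rRNA-depleted total RNA and quantified them with kallisto 0.43.0, with Sscrofa11.1 as the pig build (submitters' processing notes). The annotation release of the table is not given in sources used here. The authors deposited TPM per gene, 1 table a species, in which each library sums to 1000000. TPM keeps no read number, so depth is unknown and no counting error is given. Symbols were matched by gene ID (14857 of 25880), and 13 mitochondrially encoded genes were set aside. TPM were rescaled so that named nuclear genes sum to 1000000, and log2 used a pseudocount of 1. Everything is description over 6 libraries, with no test.

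The genes and lists were chosen with earlier results of these data known. Members named were to be those over 3 scaled MADs (1.4826 times the MAD) from the median, the 3 highest and 3 lowest of each subunit, the 3 largest and 3 smallest CVs, RPS28 and a panel by role, 20 in all, besides panels of other ribosomal proteins and translation factors. Members outside that rule (RPS18, RPS3A, RPS20, RPS23, RPL6, RPL23, RPL23A, RPL28 and RPL29) were named after their values were seen. A few items are counted but not reported here by name. Transcript starts, lengths and sequences are from RefSeq on Sscrofa11.1, where 13510 named nuclear genes have a chromosomal transcript. For genes with several transcripts the longest was used, from the curated ones where there were any. The deposited TPM need not rest on these transcripts. Near-identical copies were sought with BLAST 2.17.0. Scripts used Python 3.11.15, pandas 2.3.3 and numpy 2.4.6 and were tested on simulated data.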

Additional observations from a re-analysis of the deposited data

Results flagged for a closer look

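Of 49 sets of 6 library values examined, 3 held a library far from the rest by Dixon's criterion (gap to the nearest value over the whole range above the critical value for 6 samples), which chance does in about 1 of 20 sets. Flags on 3 of 49 sets are near that rate. RPL10L was at 1.06 rescaled TPM in replicate 4 and at 0 in the others, so its gap is the whole range whatever the value. RPL10 was at 3152 rescaled TPM in replicate 5 against 1264 to 1952 in the others, a gap of 0.635 of the range. The SD of log2(rescaled TPM + 1) over the 44 genes was 2.72 in replicate 5 against 2.57 to 2.60 in the others, a gap of 0.815 of the range.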

How the results depend on the processing

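In deposited TPM the median gene was at 167, the SD of log2 over genes was 2.19, the median CV was 0.574, the share of all TPM was 1.40%, and replicates 4 and 5 lay both above for 0 genes and both below for 41, the last 2 counts added after seeing the data. Rescaling over named nuclear genes outside the 44 gave a median CV of 0.218 and 3 genes below, and centring on the median gene a median CV of 0.387 (0.276 over all named nuclear genes) and 1 gene below. Adding 5 ribosomal proteins the name rule misses gave a large-minus-small difference of -0.49 and a median CV of 0.273. Without the paralogs ending in L the SD of log2 was 1.52 and 0 outliers remained. A pseudocount of 0.1 gave an SD of 3.04, only genes with a mean of at least 10 an SD of 1.62, and a limit of 2 scaled MADs 8 outliers. Leaving out replicates 4 and 5 together, also added after seeing the data, gave a median level of 861 and a median CV of 0.0909. With each library left out in turn, the large-minus-small difference was between -0.88 and -0.74, the median level between 935 and 1062, the share between 7.94 and 8.79%, the median CV between 0.173 and 0.218, the SD of log2 between 2.59 and 2.62 and the outliers 2 or 3, the one lost being RPS27L. The small subunit stayed the higher under every alternative run. Of the 20 named genes' means, deposited TPM moved 18 by more than 1 SD, rescaling outside the 44 moved 2, quantile normalization 1 (RPS28, to 14754) and centring 0, and no library left out moved any. The causes of these shifts were not tested. No paired analysis was possible because no result comes from a test and the rat table was not used. Depth is unknown, so counting error, which matters most for genes near 0 such as RPL10L and RPL3L, cannot be given.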
